A study of Mus musculus with 6 samples.

Results

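The regions described here are stretches of chromatin at the ends of genes that were called open in all 3 β-cell libraries from Chd4 knockout mice and in none of the 3 from control mice. Peaks of the 6 ATAC-seq libraries were merged wherever they shared at least 1 bp. Of 156745 merged regions, 15755 autosomal ones were called in every knockout and in no control library. Of these, 601 (3.81%) lay within 1 kb of either end of a protein-coding gene span and are termed gained gene-end regions. They lay at 623 of 20661 autosomal protein-coding genes (3.02%). The calls in the 6 libraries chose the regions, so presence in the knockout and absence in the control are a description and carry no test.

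ATAC-seq uses the transposase Tn5, which cuts accessible DNA and leaves adapters there, so that peaks mark open chromatin. The genotype labels put 3 libraries in the group Control and 3 in the group Chd4KO. All mice were treated with tamoxifen, including the controls, and β-cells from dispersed islets were sorted for the fluorescent protein Tomato. The sources used here do not name the driver of the recombination, the other alleles or the ages. They also do not say whether each library is an animal of its own, so a p-value measures just how these libraries spread, which may be technical. In bulk chromatin, more cells with an open site and a more open site per cell cannot be told apart.

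Chd4 is the ATP-dependent remodeling helicase of the NuRD complex, which also carries histone deacetylases and is known for keeping genes of other lineages silent. The start of an active gene is usually the most open part of it, because transcription factors and RNA polymerase assemble there. Many start sites lie in CpG islands, which are open in most cell types, while CpG-poor starts tend to be open in few tissues. The 3′ end of a gene is less often open.

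The control lists held 100109 to 110693 peaks and the knockout lists 119088 to 124125. Read depth is unknown, and the part of list length in the number of gained regions was not tested. With the 50000 strongest peaks of every library, 311 gene-end regions were gained and 330 were lost, meaning called in all controls and in no knockout, and 71 of the 601 regions overlapped one of those 311. All 10 β-cell marker genes had a gene-end peak in every library, with 10764 to 11793 bp under peaks in the controls and 9285 to 10290 bp in the knockouts. Of 14 markers of other cells, 5 to 8 had one in the controls and 8 or 9 in the knockouts, with 3591 to 4594 and 3581 to 4472 bp. Pdgfrb, which is at a gained region, is among the 14, and without it the knockouts had 7 or 8 genes with a peak and 3209 to 3935 bp. The defining markers Gcg (α-cells), Cpa1 (acinar cells), Pecam1 and Cdh5 (endothelium) and Ptprc (leukocytes) were at 0 in all 6 libraries.

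Promoter sequences are shown for the 4 of the 12 strongest gained gene-end regions that lay at a gene start with a matching RefSeq window (GRCm38.p6, the assembly that mm10 names), from 250 bases before to 50 after the start. CpG dinucleotides are dense at Tlx3 and sparse at Padi3 and Olfr373. The windows are Tlx3 at chr11:33203539-33203838 (minus strand), Padi3 at chr4:140810599-140810898 (minus strand), Ttc29 at chr8:78213092-78213391 (plus strand) and Olfr373 at chr8:72099512-72099811 (plus strand). Hoxa5 at chr6:52204538-52204837 (minus strand) was added after its values were seen, as the window with the highest CpG ratio. Sequences run 5′ to 3′ on the gene's strand. Capitals mark matches, on either strand, to the short words whose shares are given with the promoter comparison. Of the E-box CANNTG, just the form CAGATG is marked.
Tlx3: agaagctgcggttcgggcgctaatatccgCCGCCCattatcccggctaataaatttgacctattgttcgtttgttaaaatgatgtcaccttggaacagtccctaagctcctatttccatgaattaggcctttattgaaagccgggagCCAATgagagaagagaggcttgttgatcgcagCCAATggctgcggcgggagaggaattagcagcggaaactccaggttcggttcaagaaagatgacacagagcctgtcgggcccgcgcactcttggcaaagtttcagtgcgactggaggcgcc
Padi3: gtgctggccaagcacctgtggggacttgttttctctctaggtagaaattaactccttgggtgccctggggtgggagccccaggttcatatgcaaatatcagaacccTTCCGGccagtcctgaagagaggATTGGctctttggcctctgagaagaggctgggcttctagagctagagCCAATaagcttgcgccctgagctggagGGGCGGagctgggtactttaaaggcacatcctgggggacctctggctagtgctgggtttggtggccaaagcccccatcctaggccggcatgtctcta
Ttc29: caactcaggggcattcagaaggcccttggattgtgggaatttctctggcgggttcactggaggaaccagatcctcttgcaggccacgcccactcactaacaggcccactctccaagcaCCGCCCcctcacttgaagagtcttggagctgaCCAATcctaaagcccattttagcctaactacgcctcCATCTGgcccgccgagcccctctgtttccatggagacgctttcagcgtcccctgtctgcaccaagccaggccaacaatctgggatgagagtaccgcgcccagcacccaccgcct
Olfr373: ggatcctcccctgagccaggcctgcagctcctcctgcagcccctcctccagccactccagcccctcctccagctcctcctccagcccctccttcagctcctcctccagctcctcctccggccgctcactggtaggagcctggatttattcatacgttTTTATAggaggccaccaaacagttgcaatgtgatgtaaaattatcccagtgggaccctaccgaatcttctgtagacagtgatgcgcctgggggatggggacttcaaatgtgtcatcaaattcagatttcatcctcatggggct
Hoxa5: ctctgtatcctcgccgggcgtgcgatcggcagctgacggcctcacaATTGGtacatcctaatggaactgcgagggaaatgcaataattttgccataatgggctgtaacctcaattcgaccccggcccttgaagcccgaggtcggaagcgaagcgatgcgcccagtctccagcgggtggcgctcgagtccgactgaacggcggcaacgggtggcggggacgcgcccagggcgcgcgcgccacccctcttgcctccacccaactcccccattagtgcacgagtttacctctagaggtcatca

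The 12 strongest gained gene-end regions lay at genes of varied function. Strength was ranked by the mean percentile of the authors' −log10 q within the 3 knockout lists, and the values that follow are the authors' fold enrichment over local background at the summit, in knockout libraries 1, 2 and 3. The strongest region lay 354 bp beyond the 3′ end of Gm9573 (chromosome 17, 35617035 to 35617569), with folds of 34.6, 33.5 and 29.8. At Tlx3, a homeobox gene of developing neurons, the region covered the gene start (chromosome 11, 33203407 to 33204137) with folds of 22.7, 24.2 and 20.7. At Padi3, which encodes a peptidylarginine deiminase of skin and hair, it covered the start (chromosome 4, 140810560 to 140811156) with folds of 15.4, 18.3 and 18.8. No control library had a peak in any of these regions, and the 3 knockout values lay close together. At Klk12, a kallikrein-related peptidase gene, the region lay inside the gene, 181 bp from the 3′ end (chromosome 7, 43772762 to 43773400), with folds of 35.5, 33.7 and 32.1. At Ttc29, a gene of the sperm flagellum, it covered the start (chromosome 8, 78212890 to 78213639) with folds of 30.95, 28.8 and 24.2. The region of Ostc, which encodes a subunit of the oligosaccharyltransferase of the endoplasmic reticulum, lay 791 bp from the gene (chromosome 3, 130694681 to 130695126) with folds of 12.02, 14.2 and 12.7.

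The other 6 of the 12 strongest regions lay at Psg16, Zfp26, Olfr373, Rasl10a, Zfp85 and Hoxc13. Psg16 encodes a pregnancy-specific glycoprotein, and its region (chromosome 7, 17132701 to 17133790) had folds of 25.7, 25.4 and 23.2. The zinc finger genes Zfp26 (folds of 23.2, 23.8 and 20.6) and Zfp85 (29.8, 29.4 and 26.5) held their regions at the 3′ end. The region of Olfr373, an olfactory receptor gene, had folds of 30.2, 26.2 and 23.1. The lowest folds among the 12 belonged to Rasl10a, a Ras-like GTPase gene, at 7.96, 8.75 and 8.35. At Hoxc13, a homeobox gene of hair and nail, the region covered a gene end (chromosome 15, 102920541 to 102921548) with folds of 25.6, 23.0 and 18.5. Knockout library 3 had the lowest fold in 9 of these 12 regions.

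**Figure D1:**
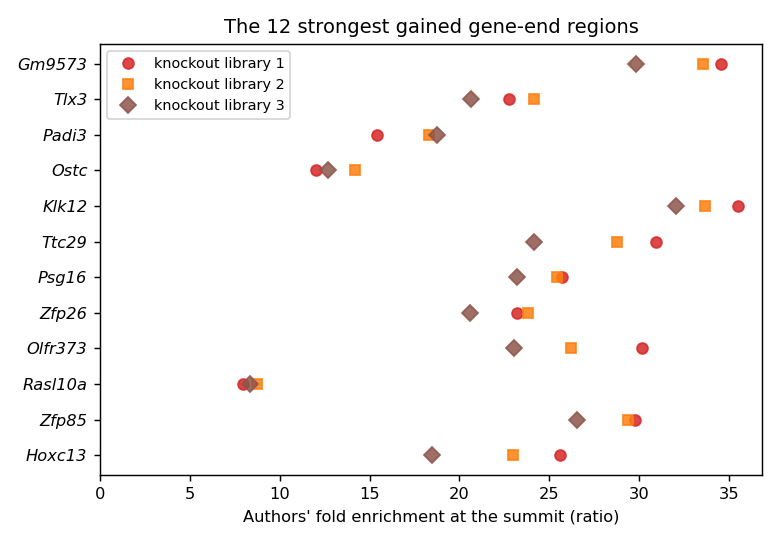
Authors' fold enrichment at the summit (horizontal axis, ratio) of the 12 strongest gained gene-end regions, one row per region named by its nearest gene, with a symbol for each of the 3 knockout libraries. The control libraries have no peak there and so no symbol. Values run from 7.96 at Rasl10a to 35.5 at Klk12, and the libraries of a region lie nearer to each other than the ends of that range.

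The widest regions by mean bases under knockout peaks included Psg16 and Hoxc13 again. At Pcdh15, a protocadherin gene of inner ear hair cells, peaks covered 893, 981 and 927 bp near the start. At Olig2, a gene of oligodendrocyte and motor neuron specification, they covered 927, 934 and 918 bp over the start. At Noxa1, which encodes an activator of NADPH oxidases, they covered 1034, 1050 and 809 bp. At Dnajb4, a heat shock co-chaperone gene, they covered 351, 1229 and 1235 bp, so library 1 lay far below the others, and the region was among the weakest, with folds of 2.43, 2.83 and 2.71. Width and strength therefore ranked the regions differently.

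Most of the 601 regions were narrow and lay below the middle of their lists in strength. Averaged over the 3 knockout libraries, the median covered length was 340 bp and the median fold 5.70, with a range of 1.94 to 33.7. Peaks of these regions had median percentiles of the authors' −log10 q of 36.7, 37.3 and 31.7 in the 3 knockout lists, where all autosomal gene-end peaks had 86.96, 85.9 and 83.8. Gained regions away from gene ends had 35.5, 36.1 and 32.9, close to those at gene ends. The summits of the 3 libraries lay within 50 bp of each other in 471 regions (78.4%), with a median spread of 23 bp. The strongest of the 3 libraries was library 1 in 185 regions, library 2 in 243 and library 3 in 173.

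The calls by library show how the 601 regions stand among all 17483 autosomal gene-end regions. Regions called in all 6 libraries numbered 13856, and those called in 2 knockout libraries and no control library 278. The set chosen by the rule made up 3.44% of gene-end regions, from 2.31% on chromosome 14 to 5.24% on chromosome 15. The reverse set, lost gene-end regions, numbered 239.

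**Figure D2:**
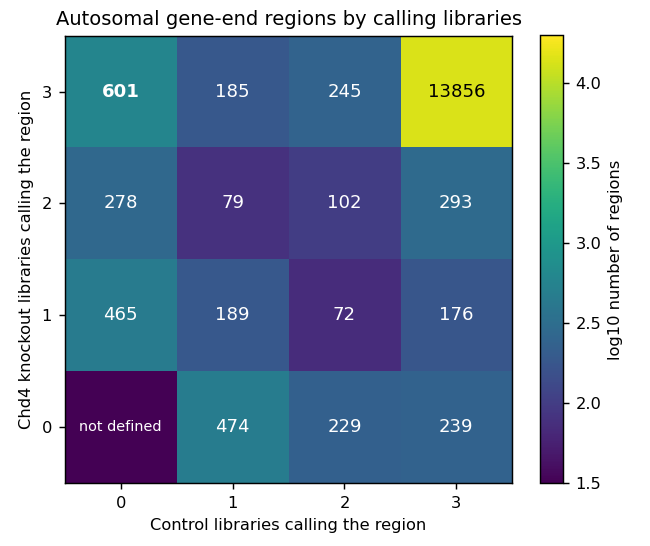
Number of autosomal gene-end regions by the number of knockout libraries (vertical axis) and control libraries (horizontal axis) that call them, with the colour on a log10 scale. The gained set of 601 is the top left cell, against 239 in the bottom right cell and 13856 in the cell of all 6 libraries.

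In libraries left out of the choice, the knockout library called more of the chosen regions than the control library did. Gene-end regions were chosen on 2 knockout and 2 control libraries, in each of the 9 ways to leave out 1 library of each group, and looked up in the left-out pair. Between 706 and 851 regions were chosen. The left-out knockout library called 80.3% to 92.5% of them (mean 87.0%), and the left-out control library 7.12% to 12.6% (mean 9.17%). As a comparison, 133 to 239 gene-end regions were called in 1 of the 2 knockout and 1 of the 2 control libraries used for the choice. Of these the left-out knockout library called 28.7% to 53.5% and the left-out control library 29.7% to 62.1%, so those ranges overlapped. The 9 choices share libraries and region boundaries were drawn from all 6, so no test was made. Each choice includes all 601 gained gene-end regions. By the rule, the left-out knockout library calls every one of these and the left-out control library none. The shares are therefore not independent of the set, and they are a description.

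**Figure D3:**
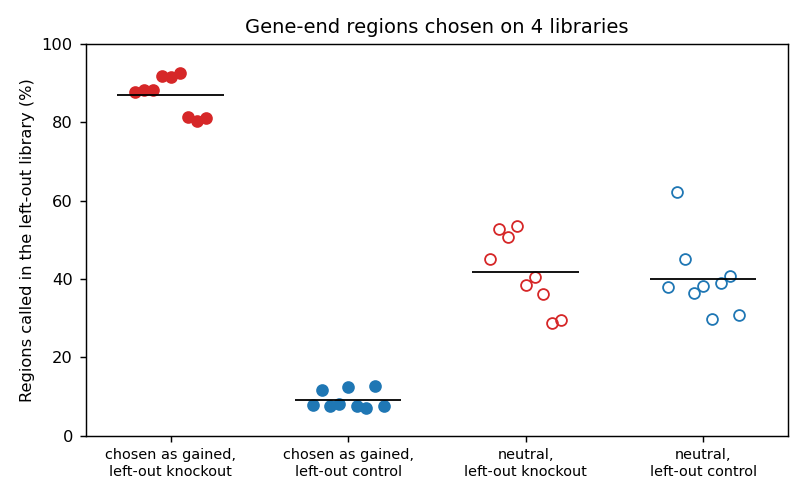
Percent of gene-end regions called in a library not used to choose them (vertical axis), for regions chosen as gained on 4 libraries (filled) and for neutral regions called in 1 knockout and 1 control library (open), in the left-out knockout (red) and control (blue) library. Each point is 1 of 9 choices and the line is their mean. Every choice includes the 601 gained gene-end regions, whose calls the rule fixes. Filled red points lie at 80.3% or above and filled blue points at 12.6% or below, while the open points of the groups overlap.

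The rule named no end of the gene. It left out every region that a control calls, which bears on the share at starts. Over all autosomal genes with known strand, 65.0% of starts and 18.9% of 3′ ends lay within 1 kb of a region called in any control. Strand was known for the genes of 462 of the 601 regions. Of these, 208 lay at a gene start, 236 at a 3′ end, and 18 at a start and a 3′ end, so 48.9% touched a start (95% exact Clopper-Pearson interval 44.3% to 53.6%, for counting error over regions). Of gene-end regions called in all 6 libraries, 86.2% touched a start (85.5% to 86.8%). The share was 54.9% (47.6% to 62.1%) for lost gene-end regions and 52.5% (43.2% to 61.7%) for those called in exactly 3 libraries of mixed genotype, and these intervals overlapped that of the gained regions. With the 50000 strongest peaks the gained share was 63.5%, and with regions joined from summits 60.2%, both above the interval. The intervals count regions as if they were independent and do not measure the spread between libraries, so they are a description. The differences between sets were not tested, since neighbouring regions are not independent. The part of the rule in the lower share of starts was not tested either, so nothing is read from its distance to 86.2%.

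At gene starts the gained regions sat close to the start or on its upstream side. Of 220 regions with a start as the nearest gene end, 113 (51.4%) had their mean knockout summit within 250 bp of it and 163 (74.1%) upstream of it. For regions called in all 6 libraries these shares were 70.2% and 48.7%. Of 242 regions nearest to a 3′ end, 15.3% had the summit within 250 bp, against 17.0% of those called in all 6. Regions over the gene end itself made up 49.0% of regions at starts and 9.75% at 3′ ends. By the rule a gained region cannot overlap a control peak, and the part of that in these positions was not tested.

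**Figure D4:**
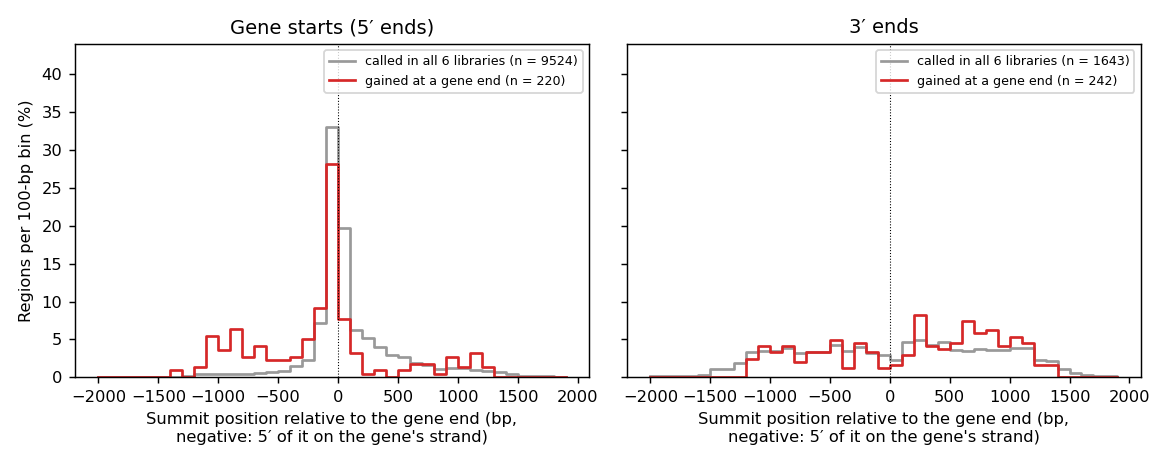
Distance of the mean knockout summit from the nearest gene end (horizontal axis, bp along the gene's strand, negative before it) as percent of regions per 100-bp bin, for gene starts (left) and 3′ ends (right), in gained gene-end regions (red) and regions called in all 6 libraries (grey). At starts the gained set peaks at the start and has a second group upstream of it, with 74.1% of summits upstream, and at 3′ ends neither set has a sharp peak.

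The rule takes out any region that a control calls, so a start lying under a control region is largely removed before counting. The shares of gene ends near control regions are therefore a description of the set, and nothing is read from their distance to those of all genes. Among the 208 regions at a start alone, 52 had that gene end within 1 kb of a region called in all 3 controls. Over all 16456 autosomal genes with known strand, 62.8% of starts did. Among the 236 regions at a 3′ end alone it was 10.6%, against 15.8% of all 3′ ends. In all, 253 of the 601 regions (42.1%) lay at genes with no control region at either end. The nearest region called in any control lay at a median of 4044 bp, and within 1 kb for 19.6% of regions, against 12.1% of gained regions away from gene ends.

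At Tlx3 a gained and a lost region lay in the same gene. The gained region over the start was covered by peaks over 709, 684 and 607 bp in the knockouts. A region inside the gene (chromosome 11, 33201079 to 33201916) was covered over 676, 765 and 540 bp in the controls and had no peak in any knockout. A lost region lay in the gene territory, the span plus 10 kb on either side, for 75 of the 601 regions (12.5%). The gained region was the sole gained one of its territory in 351 cases (58.4%), and 81 regions lay in a territory with 3 or more. The highest number was 10, along the long gene Pcdh15 (chromosome 10, 73096277 to 74649831). Territories differ in length and the same counts were not made over all genes, so nothing is read from these.

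Promoter windows under gained regions were poor in CpG compared with those open in all libraries. The windows were the 300 bases of RefSeq promoters, of which 108 (102 genes) were overlapped by a gained gene-end region. Their median ratio of observed to expected CpG was 0.32, against 0.78 in 12171 windows under regions called in all 6 libraries, 0.59 in all 20084 autosomal windows and 0.19 in 7083 windows under no region. A ratio of at least 0.6, a usual criterion for CpG islands, was found in 24 of the 108 (22.2%), in 75.6% of windows under shared regions and in 5.29% of windows under no region. Median GC content was 54.8%, 62.0% and 47.3% in the same order. The 38 windows under lost regions had a median ratio of 0.55, and 47.4% reached 0.6. The rule takes out any region that a control calls, and most windows under regions called in all 6 libraries reached 0.6. The choice therefore bears on the lower ratio of the gained set, and its part was not tested.

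The CpG-rich minority included genes of embryonic patterning. The 24 windows belonged to the homeobox genes Tlx3, Hmx1, Uncx, Hoxa5, Nkx3-2, Pou3f3 and En1, the T-box gene Tbx18, the forkhead gene Foxf2, the helix-loop-helix gene Olig2 and the signalling gene Wnt3, and to Meioc and Adad2 (meiosis and testis), Rbmxl2, Fsd1, Prr23a1, Prr23a2, Prr23a3, Gm40881, Galk1 (galactokinase), Ccdc13, Rassf1, Rhcg (an ammonium transporter) and S100z. Hoxa5 had the highest ratio, 1.02, followed by En1 at 0.95 and Uncx at 0.94. At the other end, Padi3 had 0.17 and Olfr373 0.23. This group was put together after the ratios were seen, so it has no test. Some of the genes had control peaks elsewhere within 1 kb of their ends. In control libraries 1 to 3 these covered 844, 814 and 872 bp at En1 and 656, 677 and 640 bp at Tbx18. Tlx3, Rassf1, Rhcg, S100z and Ccdc13 had them in all controls too, and Pou3f3 in control libraries 1 and 2. The rest had 0 bp in every control, among them Hmx1, Uncx, Hoxa5, Nkx3-2, Foxf2, Olig2 and Wnt3.

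**Figure D5:**
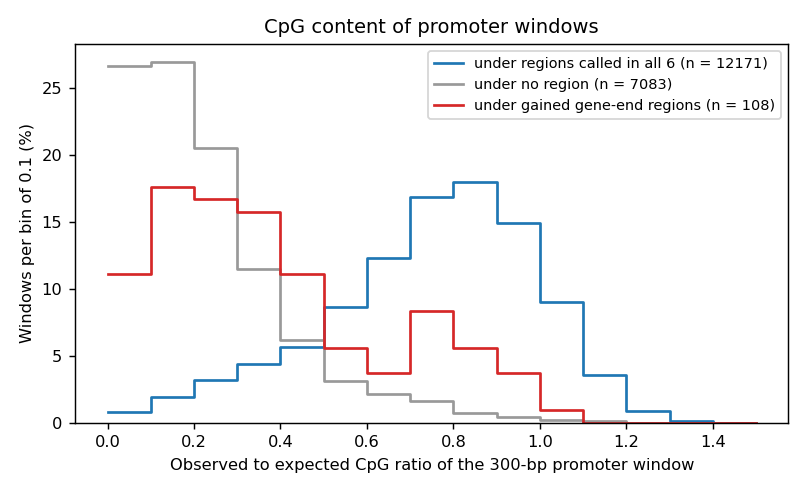
Distribution of the observed to expected CpG ratio (horizontal axis) of 300-base promoter windows as percent of windows per bin of 0.1, under gained gene-end regions (red, 108 windows), under regions called in all 6 libraries (blue) and under no region (grey). The red line lies mostly with the CpG-poor windows, with a smaller group above 0.6 that holds 22.2% of windows. By the rule, regions that a control calls are left out of the red set.

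Short words in these windows were counted on either strand, as matches of letters. The box CCAAT was in 50.0% of the 108 windows, against 37.6% under shared regions and 38.1% of all windows. GGGCGG, the core of the GC box, was in 52.8%, against 67.6%, and 47.0% of all. TATAAA was in 9.26%, against 6.03% and 12.7%, and the ETS-type core CCGGAA in 15.7%, against 27.9% and 19.1%. TGANTCA, the AP-1 word, was in 8.33%, against 4.35% and 7.06%. The E-box CANNTG, which includes CAGATG, was in 82.4%, against 62.3% and 68.7%, and CAGATG alone in 16.7%, against 10.7% and 14.6%. Windows under no region held the E-box in 78.9% and those under lost regions in 81.6%, close to the gained ones. TGTTTAC, the forkhead word, was in 3.70%, against 2.43% and 3.04%, and GATAAG, the GATA word, in 9.26%, against 4.27% and 6.91%. Under no region, TGANTCA was in 11.5%, GATAAG in 11.4%, CAGATG in 21.1%, TATAAA in 24.4% and TAATTA in 8.39%, all above the gained windows, while CCAAT was in 39.3%, GGGCGG in 12.2% and CCGGAA in 5.01%, below them. Under lost regions, TGANTCA was in 10.5% and CCAAT in 34.2% of 38 windows. TAATTA, a homeodomain core, was in 1.85%, against 2.23% and 4.47%, the cyclic AMP response element TGACGTCA in 2.78%, against 3.36% and 2.30%, and the palindromic NRF1 motif in 0 windows, against 2.10% and 1.34%. In the printed windows, Tlx3 and Padi3 each hold CCAAT or its reverse complement 2 times, and Olfr373 holds TATAAA on its minus strand.

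The counts of β-cell genes in the set were small and are given beside the share of all genes, with nothing read from them. None of 36 β-cell transcription factor genes and 2 of 43 autosomal insulin secretion genes (4.65%) had a gained gene-end region, where 3.02% of all autosomal genes did. At Abcc8, which encodes the sulfonylurea receptor of the ATP-sensitive potassium channel, the region lay 811 bp from the gene (chromosome 7, 46103406 to 46103712) and was weak, with folds of 2.32, 2.46 and 2.59. A region called in all 6 libraries lay 605 bp away. Sstr3, a somatostatin receptor gene, held a region beyond its 3′ end with folds of 4.77, 5.07 and 4.25 and another over its start with 2.60, 2.12 and 2.72. Chd6, a relative of Chd4, was the sole member of 28 autosomal remodeler genes, with folds of 2.76, 2.64 and 2.39 at a region 134 bp from one called in the controls.

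Lists of other lineages held 0 to 3 member genes each, and the mesenchymal list had the highest share of its genes. Of 16 mesenchymal genes, 3 (18.8%) had a gained gene-end region, where 3.02% of all autosomal genes did. At Pdgfrb, a platelet-derived growth factor receptor of pericytes, peaks covered 537, 430 and 372 bp, with folds of 3.28, 4.13 and 3.01. At Pdgfra, its relative of fibroblasts, they covered 278, 264 and 241 bp over the start. Col1a2, a type I collagen gene, had folds of 12.5, 13.4 and 13.9 near its start. Over the whole list, peaks at gene ends summed to 4173 to 4662 bp in the controls and 5983 to 6891 bp in the knockouts, and 7 genes had a peak in each control and 10 in each knockout. The rule itself fixes the part of the 3 members in this. Without them the knockouts had 4663 to 5559 bp, from just above the highest control at 4662 bp. They had 7 genes with a peak, as many as the controls. Col3a1, Dcn, Lum, Cspg4 and Postn were at 0 in all 6 libraries. The part of other cells in these regions was not tested.

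The remaining lists had 0 to 2 member genes each, and with 3.02% of all genes in the set such counts do not set a list apart. Leukocyte genes had 0 of 20, endothelial 1 of 16 (Sox18), acinar 1 of 21 (the elastase gene Cela3b), ductal 1 of 18 (Krt7), neuronal and synaptic 2 of 49 (the glutamate receptor gene Grin2b and Dpysl4), striated muscle 2 of 36 (Tnni2, a troponin, and Myog, a myogenic factor), hepatocyte 1 of 32 (Serpina1d) and germline 2 of 40 (Tuba3b and Meioc). The list of other islet cells had 1 of 15 (Peg10) and that of dedifferentiation and disallowed genes 1 of 28 (Pdgfra). At Dpysl4, a gene of the developing nervous system, the region covered a gene end over 905, 857 and 750 bp with folds of 23.8, 21.6 and 12.7. At Meioc it covered the start over 291, 326 and 220 bp with folds of 7.90, 8.25 and 4.52. Acinar genes summed to 1675 to 2218 bp at their ends in the controls and 2448 to 2860 bp in the knockouts, with 16 of 21 at 0 in all libraries, Cpa1, Prss1 and Pnlip among them. Without the member Cela3b, whose part the rule fixes, the knockouts had 2201 to 2284 bp, which overlapped the controls. Hepatocyte genes summed to 5399 to 6292 and 8080 to 9525 bp, with 20 of 33 at 0, Alb and Afp among them. Without the member Serpina1d the knockouts had 7764 to 8845 bp, still above the controls, and the cause was not tested.

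Gene families were grouped by the start of the symbol. Hox genes, which pattern the body axis, had 5 of 39 (12.8%), in 4 regions since Hoxa5 and Hoxa6 share one. Hoxc10 had folds of 21.5, 18.3 and 14.8, the shared Hoxa5 region 8.20, 8.40 and 5.65, and Hoxd11 5.81, 7.22 and 3.39. Symbols of serine proteases (Prss, Klk and others) had 7 of 94 (7.45%), among them Prss45 with folds of 28.3, 27.6 and 20.2 and Klk15 with 14.2, 7.96 and 13.9. Forkhead genes had 3 of 40 (Foxc2, Foxf2 and Foxj2), and serpins 4 of 62. Of 1104 olfactory receptor genes, 12 (1.09%) had a region. Zinc finger symbols had 15 of 455 (3.30%), solute carriers 13 of 376 (3.46%) and potassium channels 3 of 92 (3.26%), near the 3.02% of all genes. Chemokine and interleukin symbols had 6 of 131 (4.58%), with Ccl20 holding 2 regions, cytochromes P450 4 of 99 (4.04%) and keratins 3 of 109 (2.75%). At Cyp1a1, a target of the aryl hydrocarbon receptor, folds were 9.84, 14.3 and 6.41. The families not named here had 0 to 5 member genes each. Neighbouring family members share chromatin, and no family was tested.

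Within the families, the regions differed widely in strength and in the gene end they lay at. Among zinc finger genes, Zfp459 had folds of 12.01, 15.0 and 11.3 at its 3′ end, below those of Zfp85. Among solute carriers, Slc45a4 had 20.3, 19.9 and 17.0, the concentrative nucleoside transporter gene Slc28a1 13.9, 14.4 and 15.7, and the GABA transporter gene Slc6a13 8.80, 8.23 and 6.53. Of the potassium channel genes, Kcns2 held a strong region (17.9, 13.7 and 13.6) and a weak one (4.40, 4.42 and 4.27), Kcnj1, the renal channel ROMK, had 6.56, 5.89 and 6.03 over its 3′ end, and Kcna1 5.96, 5.30 and 5.53. The olfactory receptor gene Olfr455 had 16.3, 16.8 and 16.4, and Olfr149 11.8, 11.1 and 15.6.

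For serpins, which encode protease inhibitors, the highest fold was that of Serpina1d (15.7, 9.28 and 6.78), an α1-antitrypsin gene, over its start. Serpinb5 over its start (7.45, 6.48 and 9.67), Serpinb8 over its 3′ end (7.75, 8.55 and 8.16) and Serpinf2 over its 3′ end (5.22, 7.37 and 3.52) had lower means over the libraries. The keratin genes Krt7 (6.85, 6.94 and 6.28) and Krt88 (11.6, 11.7 and 5.46) and the hair protein gene Krtap19-3 (8.20, 8.40 and 7.54) held 1 region each. Cyp27b1, the vitamin D 1α-hydroxylase gene, shared a region with Mettl1 (11.7, 9.97 and 9.24), and Cyp4f18 (6.11, 6.92 and 6.03) held one over its start. At Krt88 and Serpina1d library 3 lay well below library 1, and at Krt7 the libraries lay close together.

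Among receptor and signalling genes, Il2ra, the α chain of the interleukin-2 receptor, had folds of 8.48, 6.48 and 7.66 at its 3′ end, and Il20ra 6.72, 7.57 and 5.46 over its start. The orphan receptor genes Gpr179 (12.1, 9.28 and 6.66) and Gpr3 (5.23, 5.35 and 4.80) were stronger than Gpr26 (3.88, 4.57 and 4.14) and Gpr84 (3.37, 3.42 and 2.51). Of the forkhead genes, Foxc2 had 9.10, 8.45 and 4.78, Foxj2 4.17, 5.01 and 4.52 and Foxf2 3.96, 3.54 and 3.40. The adhesion genes Pcdh7 (6.41, 6.34 and 6.78) and Cdh6 (7.30, 4.57 and 5.88) lay below Pcdh15, which had 17.2, 17.5 and 15.2. Tmem208, of the endoplasmic reticulum, had 27.3, 28.8 and 16.8, with library 3 well below the others. Within 1 kb of its ends, Il2ra had 531, 423 and 334 bp under peaks in the controls and 444, 90 and 143 bp in the knockouts. Il20ra, Gpr179, Gpr3, Gpr26, Gpr84, Foxj2, Cdh6 and Tmem208 also had peaks there in every control, and Foxc2 and Foxf2 in none.

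Covered length, the bases under peaks in a gene's span and 10 kb on either side, was compared over all genes with limma on log2(scaled length + 300 bp). It includes the gained regions, and the same libraries chose the genes, so the counts are a description from which nothing is read. Of 586 member genes tested, 189 were higher in the knockout and 22 lower (limma adjusted p under 0.05), where 7.56% and 14.5% of 17707 genes were called. Median log2 fold changes were 0.16 for the member genes and -0.09 for all genes. Without scaling 280 were higher and 3 lower, and the median of all genes moved from -0.09 to 0.06. Higher calls numbered 116 without control library 3 and 118 without knockout library 1. Lower calls numbered 5, 13 and 6 without control libraries 1, 2 and 3, and 10 and 11 without knockout libraries 1 and 2. With the 50000 strongest peaks 69 were higher and 36 lower.

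Shared regions around the same genes had a median change close to 0. Covered length was recomputed under regions called in all 6 libraries, which leaves out the gained ones. Of 540 member genes tested, 25 were higher and 19 lower (limma adjusted p under 0.05), where 2.95% and 3.05% of 17246 genes were called. These regions took no part in the rule, but the libraries are the same, so the calls come from the fit over all genes and are not independent of the choice. Medians were -0.01 for the member genes and -0.02 for all genes. Without control libraries 1, 2 and 3 the higher calls numbered 9, 7 and 5 and the lower calls 6, 4 and 2. Without knockout libraries 1, 2 and 3 they numbered 4, 6 and 16, and 4, 3 and 11.

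The 5 highest and 5 lowest member genes by change under shared regions are described, first the 3 whose calls held with any 1 library left out. Covered length after scaling is given in control libraries 1 to 3 and then knockout libraries 1 to 3. At Adad2, a gene of the testis, it was 1093, 1186 and 1159 bp against 2115, 2037 and 1932 bp (log2 fold change 0.69 ± 0.05 SE, limma adjusted p = 0.0030). At Mrpl45, a mitochondrial ribosomal protein gene, it was 2313, 2244 and 2375 bp against 1590, 1568 and 1568 bp (-0.48 ± 0.03, limma adjusted p = 0.0030). At Gm9573 it was 513, 479 and 525 bp against 770, 870 and 760 bp (0.45 ± 0.06, limma adjusted p = 0.015). The groups did not overlap at these 3 genes, which were picked as extremes of the change. The choice bears on that, no share over all genes is given, and nothing is read from it. With the gene span plus 50 kb Mrpl45 had the opposite sign (0.05), and Adad2 and Gm9573 no longer passed (limma adjusted p = 0.22 and 0.68). The call of Adad2 was also lost with the 50000 strongest peaks (limma adjusted p = 0.61).

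The other 7 of the 10 genes, some with larger changes, passed or missed the threshold less firmly. Cer1, which encodes a secreted antagonist of Nodal and BMP (0.61 ± 0.14, limma adjusted p = 0.047), Myocos (0.56 ± 0.12, limma adjusted p = 0.041) and the apolipoprotein L gene Apol7a (0.51 ± 0.08, limma adjusted p = 0.021) were higher. Ptpn5, a phosphatase gene of neurons (-0.69 ± 0.12, limma adjusted p = 0.023), and the homeobox gene Hmx1 (-0.44 ± 0.08, limma adjusted p = 0.024) were lower. Calls were lost when single libraries were left out, with limma adjusted p of up to 0.12. Cer1 lost its call without any of the 6, and Myocos without any but control library 1. Apol7a and Ptpn5 lost theirs without control library 1, 2 or 3 or knockout library 2, and Hmx1 without control library 2 or 3 or knockout library 2 or 3. Without scaling Cer1 and Myocos lost their calls (limma adjusted p = 0.065 and 0.052). Without the filter on covered length Cer1, Myocos and Ptpn5 did (limma adjusted p = 0.081, 0.079 and 0.054). With the gene span plus 50 kb Cer1, Apol7a and Hmx1 did (limma adjusted p = 0.096, 0.14 and 0.060), and with the 50000 strongest peaks Myocos did (limma adjusted p = 0.061). Hmx1 thus had a gained region over its start (folds of 14.3, 18.4 and 13.4) while the peaks of its shared regions covered 925, 1080 and 1081 bp in the controls and 770, 632 and 644 bp in the knockouts. Samd11 (-0.55 ± 0.14, limma adjusted p = 0.060) and Csgalnact1 (-0.41 ± 0.11, limma adjusted p = 0.074) did not pass. Csgalnact1 passed without knockout library 3 (-0.53, limma adjusted p = 0.031).

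The 1 kb limit was set by the rule. Just inside it lay regions 999 bp from Arhgef19, 998 bp from Eif3l and 995 bp from Prss45, with knockout percentiles of 75.6, 64.0 and 55.4, of 56.2, 57.0 and 42.8, and of 81.5, 80.1 and 76.9. Just outside lay regions 1002 bp from Slc22a3, 1004 bp from Fancd2os and 1005 bp from D7Ertd443e, with 15.1, 18.6 and 12.9, with 18.1, 7.96 and 12.9, and with 56.3, 59.2 and 52.3.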

How the data were processed

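The authors deposited narrow peaks for each library. Their peak names point to MACS2 on shifted cutting sites, and mm10 is the build per the submitters' processing notes. No source used here names the caller's version, its settings, an aligner or filters on reads. For each peak the deposited lists hold the authors' fold (ratio to local background), −log10 p and −log10 q, and a score equal to 10 times the −log10 q. They hold no read counts, so precision from depth cannot be given.

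Peaks were merged at 1 bp overlap with Python 3.11.15. Genes were 21883 protein-coding spans of RefSeq GRCm38.p6, and strand came from the promoter table, which matched 17491 of them. Covered length was scaled to the mean library total, 300 bp were added, genes with a mean of at least 300 bp were kept, and limma 3.58.1 in R 4.3.3 was run with an intensity trend and Benjamini-Hochberg adjustment. Fold changes on this scale understate changes of genes with little coverage. The fit was tested on simulated data.

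Named regions were the 12 strongest, the 6 widest, members of 14 gene lists and 20 symbol families (all, or the strongest 3 where a list held more than 4), the 3 on either side of the 1 kb limit, and the 5 highest and 5 lowest genes by shared-region covered length. Some named family members are left unprinted. Regions, lists and rules were chosen with earlier results of these data known. Alternatives were stricter peaks, other overlaps, windows, scalings, pseudocounts, filters and territories, a replicate block, and each library left out.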

Additional observations from a re-analysis of the deposited data

How the results depend on the processing

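The number of gained gene-end regions was 311 with the 50000 strongest peaks, 384 with gene ends of 500 bp and 2417 with gene ends of 5 kb, and 652 to 743 with 1 library left out. The share at a gene start was 63.45% with the 50000 strongest peaks and 60.18% with regions joined from summits, and 47.6% to 50.4% with 1 library left out. Member genes called higher by territory covered length numbered 69 with the 50000 strongest peaks and 116 to 165 with 1 library left out. Those called lower numbered 3 without scaling, 36 with the 50000 strongest peaks and 5 to 15 with 1 library left out. Under shared regions, 14 were higher and 7 lower without a filter on covered length, 8 were higher with the 50000 strongest peaks, and 7 were lower with the gene span plus 50 kb. With 1 library left out, 4 to 16 were higher and 2 to 11 lower. Of 82 such alternatives, 33 moved the value beyond its counting interval, beyond its spread over choices or by over 1.5 times. The cause was not tested.

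The replicate numbers in the titles were not taken to pair the libraries, though 3 libraries per group cannot settle whether they do. Same-numbered libraries had correlations of deviations of 0.13, 0.093 and -0.027 by territory and 0.011, 0.068 and -0.03 under shared regions, and 4 and 3 of the 6 libraries were closest to their own number. With the replicate block 166 member genes were higher and 17 lower by territory. Under shared regions the block left 0 higher and 0 lower at limma adjusted p under 0.05, with 155 member genes at an unadjusted p under 0.05, against 159 without it. Each of the 8 named genes that had passed missed the threshold with the block, at limma adjusted p of 0.059 to 0.089. Among the 10 named genes, Csgalnact1 had a log2 fold change of 0.030 with the 50000 strongest peaks and Mrpl45 one of 0.051 with the gene span plus 50 kb, opposite in sign to those reported. Read depth is unknown, so a region without a control peak may have been below the threshold there.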
